A study of Homo sapiens with 6 samples.

Results

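The genes described are the protein-coding genes whose symbols begin with MRPL or MRPS and a number, the nuclear genes named for proteins of the mitochondrial ribosome. They were taken by biotype and symbol alone, which gave 78 genes of 58735 in the count table. By known structures of the human mitochondrial ribosome, 51 of them code for proteins of the large subunit and 26 for proteins of the small subunit. The remaining one, MRPS36, carries the name but is known as a component of the oxoglutarate dehydrogenase complex. MRPS30 and MRPS18A are named as small subunit proteins and sit in the large one.

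RNA was sequenced from T3M4, an established human line of pancreatic ductal adenocarcinoma, grown untreated in DMEM with serum and antibiotic to near confluence. There were 3 libraries labelled MUC16 knockout (KO below) and 3 labelled WT, whose genotype is given as MUC16 expressing. MUC16 is a large membrane-tethered mucin, and the comparison asks how gene expression differs without it. How the knockout was made, whether it is 1 clone and whether the 3 libraries of a group are separate cultures are not stated in those sources, and if they are not, the p-values measure technical spread alone.

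The targeted gene went against its label. MUC16 had 292, 504 and 323 counts in the libraries labelled KO, against 98, 144 and 90 in those labelled WT, a log2 fold change of 1.79. All MUC16 counts in the libraries labelled KO lay above all in those labelled WT, so each direction given here is read by label, KO over WT. Whether the labels of the groups are exchanged or the knockout leaves MUC16 RNA was not tested, and exchanged labels would turn every direction below. Libraries held 19088927 to 28612621 counts. The epithelial markers EPCAM, KRT8, KRT18, KRT19 and CDH1 were abundant in all 6 libraries, with a summed level of 4730 to 4953 CPM (counts scaled by library size) in KO and 2887 to 2943 CPM in WT. Of the markers of other cells, the fibroblast collagen gene COL1A2 had 1 count in 1 KO library and none elsewhere, and the T cell gene CD3E likewise. The summed fibroblast list reached 42.4 to 46.6 CPM in KO and 30.6 to 34.1 CPM in WT, nearly all of it COL1A1. Leukocyte markers summed to 3.38 to 4.45 CPM in KO and 2.90 to 2.998 CPM in WT. Endothelial markers summed to 19.7 to 21.95 CPM in KO and 13.4 to 16.5 CPM in WT, mostly PECAM1. Whether these differences have a part in the results below was not tested.

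Mitochondria keep their own ribosome, which translates the few mRNAs of mitochondrial DNA, all of them for subunits of the respiratory chain and ATP synthase. Its 2 large RNAs come from mitochondrial DNA, while all its proteins are coded in the nucleus, made in the cytosol and imported. Some of these proteins descend from bacterial ribosomal proteins and others are found only in mitochondria. In bulk RNA, a lower level cannot be told apart from a lower share of cells or less RNA per cell.

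Mitochondrial ribosomal protein genes were mostly lower in the libraries labelled KO, by small amounts. Of the 77 members that passed the filter on low counts, 48 were lower, 0 were higher and 29 did not pass the test (edgeR quasi-likelihood test, Benjamini-Hochberg adjusted p under 0.05). Across all 16655 genes tested, 25.9% were called lower, 26.7% higher and 52.6% in either direction, so the members' share of 62.3% lower stands beside a background in which about as many genes went up as down. The median log2 fold change of the tested members was -0.22, with quartiles of -0.34 and -0.10, against 0.00 for all genes tested. The members spanned -0.80 to 0.19, and 71 of 77 lay below 0.

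Library by library, the groups did not overlap for 54 members. In 53 of these all 3 KO values lay below all 3 WT values, and in 1, MRPL33, above. Over all genes tested, 29.0% were separated in this way with KO lower and 30.0% with KO higher. Member counts made up 0.417%, 0.404% and 0.433% of each library labelled KO, against 0.471%, 0.462% and 0.464% of each labelled WT. Every KO share lay below every WT share. The spread was wider in KO (0.418% ± 0.0148) than in WT (0.465% ± 0.00461, SD, n = 3 each), with replicate 2 the lowest of the KO libraries.

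**Figure D1:**
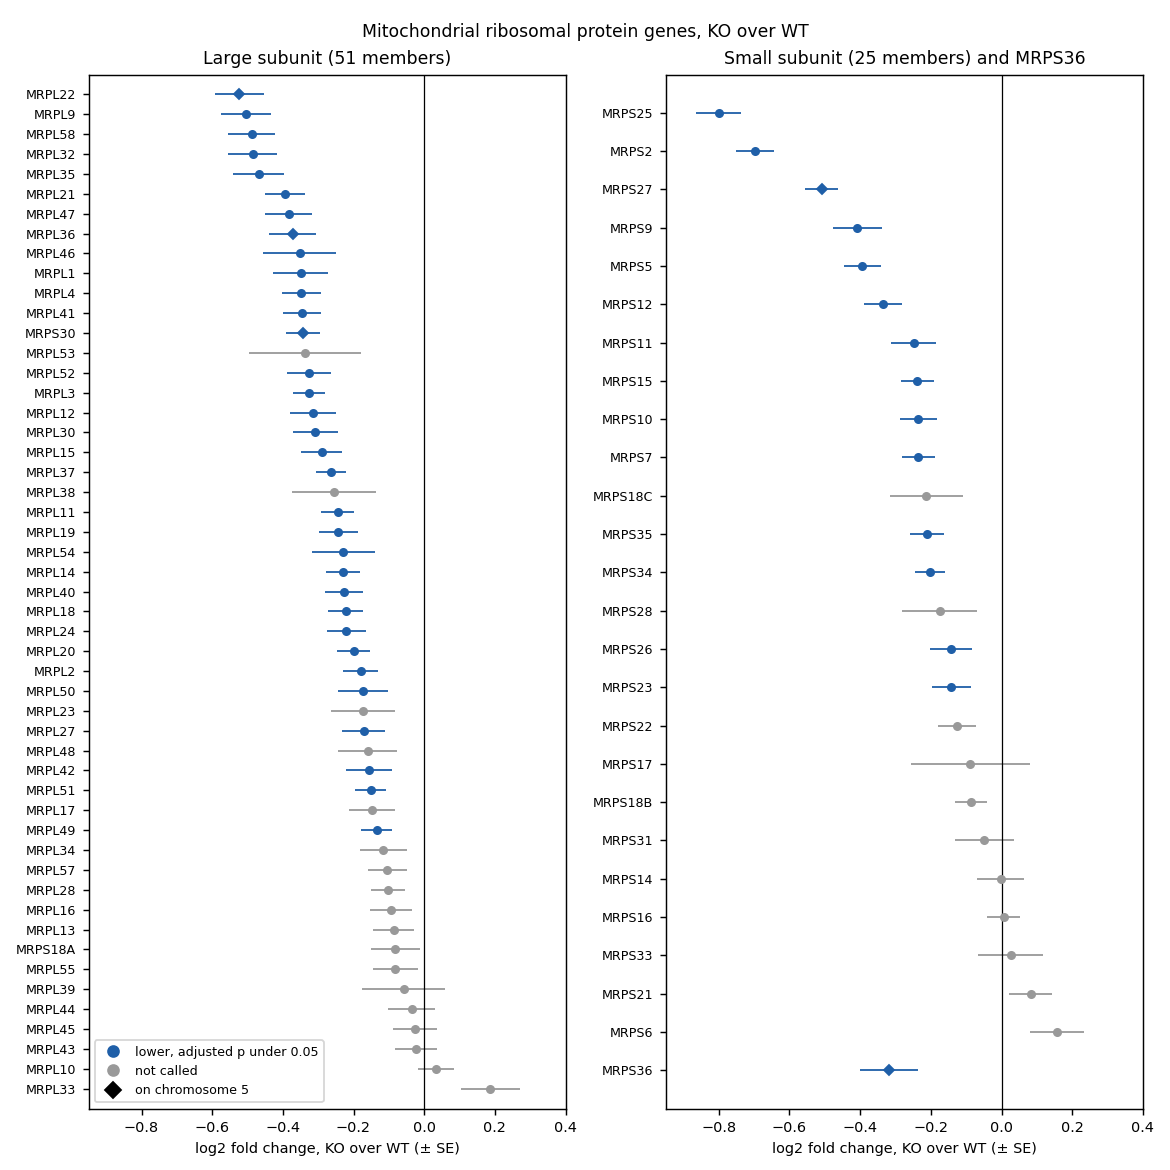
Log2 fold change of each tested member, KO over WT, with its standard error, for the large subunit (left) and the small subunit with MRPS36 (right). Blue points were called lower and grey points were not called. Diamonds are genes on chromosome 5, and the members run from -0.80 (MRPS25) to 0.19 (MRPL33).

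Both subunits took part. In the large subunit 33 of 51 members were lower and 0 higher, with a median log2 fold change of -0.23. In the small subunit 14 of 25 tested members were lower and 0 higher, with a median of -0.20. Counted by the letter of the symbol instead, 32 of 49 MRPL genes and 16 of 28 tested MRPS genes were lower. These counts stand beside 25.9% lower among all genes tested. Summed over members, the large subunit had 2633, 2523 and 2741 CPM in KO and 3109, 3064 and 3078 CPM in WT. The small subunit had 1426, 1376 and 1476 CPM in KO and 1716, 1662 and 1677 CPM in WT. In each subunit the 3 KO sums lay below the 3 WT sums. The ratio of the 2 sums was 1.85, 1.83 and 1.86 in KO and 1.81, 1.84 and 1.84 in WT, and its ranges overlapped.

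Medians of the levels were taken beside the sums. The median large subunit member stood at 33.4, 31.1 and 34.98 CPM per kilobase of its principal transcript in KO, against 38.5, 39.3 and 37.1 in WT. The median small subunit member stood at 30.1, 28.9 and 31.0 CPM per kilobase in KO, against 30.4, 30.6 and 29.3 in WT. The large subunit's medians were separated between the groups, as its sums were, and the small subunit's medians overlapped although its sums did not. A median follows the 1 or 2 genes in the middle of each list, while the sum follows its most abundant genes, and the difference between subunits was not tested.

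Proteins with a bacterial counterpart and proteins found only in mitochondria both moved. Of the first class 29 of 45 tested members were lower, with a median log2 fold change of -0.23, and of the second 18 of 31, with a median of -0.16. Within the large subunit 21 of 30 bacterial-type and 12 of 21 mitochondria-specific members were lower. Within the small subunit the counts were 8 of 15 and 6 of 10. No member of either class was called higher. Beside these counts, 25.9% of all genes tested were lower, 32.8% at 16 to 64 CPM and 49.9% at 64 CPM or more. Differences from these shares were not tested.

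The 2 members with the largest falls belong to the small subunit. MRPS25, a mitochondria-specific protein of that subunit, had 24.5, 24.5 and 25.4 CPM in KO and 43.5, 41.9 and 44.1 CPM in WT. The KO libraries lay within 1 CPM of each other and far under the lowest WT library. Its log2 fold change was -0.80 ± 0.06 (SE, edgeR adjusted p = 2.31e-10). MRPS2, the counterpart of bacterial protein S2, had 65.96, 58.5 and 64.98 CPM in KO and 101, 98.6 and 107 CPM in WT. It fell by 0.70 on the log2 scale (SE 0.05, edgeR adjusted p = 1.28e-10). Both lie away from chromosome 5, MRPS25 (ENSG00000131368) on chromosome 3 from 15042460 to 15065335 on the minus strand and MRPS2 (ENSG00000122140) on chromosome 9 from 135499984 to 135504673 on the plus strand, in GRCh38 coordinates. MRPS25 shares 18.4% of its principal transcript with NR2C2 on the other strand. MRPS2 shares 19.0% of its own with other genes, mainly AL161452.1 on the other strand. Reads there cannot be told apart, and their part in these falls was not tested.

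MRPS27, an RNA-binding pentatricopeptide repeat protein, had 101, 98.1 and 103 CPM in KO and 151, 136 and 142 CPM in WT (log2 fold change -0.51). MRPS9 had 25.2, 25.01 and 27.2 CPM in KO and 36.6, 32.8 and 33.3 CPM in WT (-0.41), and MRPS5 had 64.7, 62.2 and 64.9 CPM in KO and 89.6, 81.7 and 80.6 CPM in WT (-0.39). These 2 are counterparts of bacterial proteins S9 and S5. MRPS12, whose bacterial counterpart lies at the decoding centre, had 49.4, 47.3 and 52.0 CPM in KO against 61.0, 64.5 and 62.2 CPM in WT (-0.34). All 4 were called lower and none overlapped between the groups.

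At the other end of the small subunit, 5 members had nearly the same level or more in KO, and none passed the test. MRPS6, the counterpart of bacterial S6, had 29.5, 24.98 and 29.1 CPM in KO and 24.3, 24.2 and 26.6 CPM in WT (log2 fold change 0.16, edgeR adjusted p = 0.0907). Its groups overlapped because KO replicate 2 fell under the highest WT library. MRPS21, a small protein with a bacterial counterpart, had 44.5, 41.7 and 45.6 CPM in KO and 43.1, 42.0 and 39.4 CPM in WT (0.08). MRPS33, specific to mitochondria, had 18.5, 18.1 and 23.7 CPM in KO and 19.5, 20.3 and 19.8 CPM in WT (0.03). In both the groups overlapped, and KO replicate 3 stood apart in MRPS33. MRPS16 had 84.2, 82.3 and 85.9 CPM in KO and 82.5, 85.4 and 83.5 CPM in WT (0.01), and MRPS14 had 34.8, 32.4 and 36.6 CPM in KO and 35.1, 32.8 and 36.3 CPM in WT (-0.0025). These are counterparts of bacterial S16 and S14, and their groups overlapped almost wholly. The signs of MRPS16 and MRPS33 turned under other settings.

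**Figure D2:**
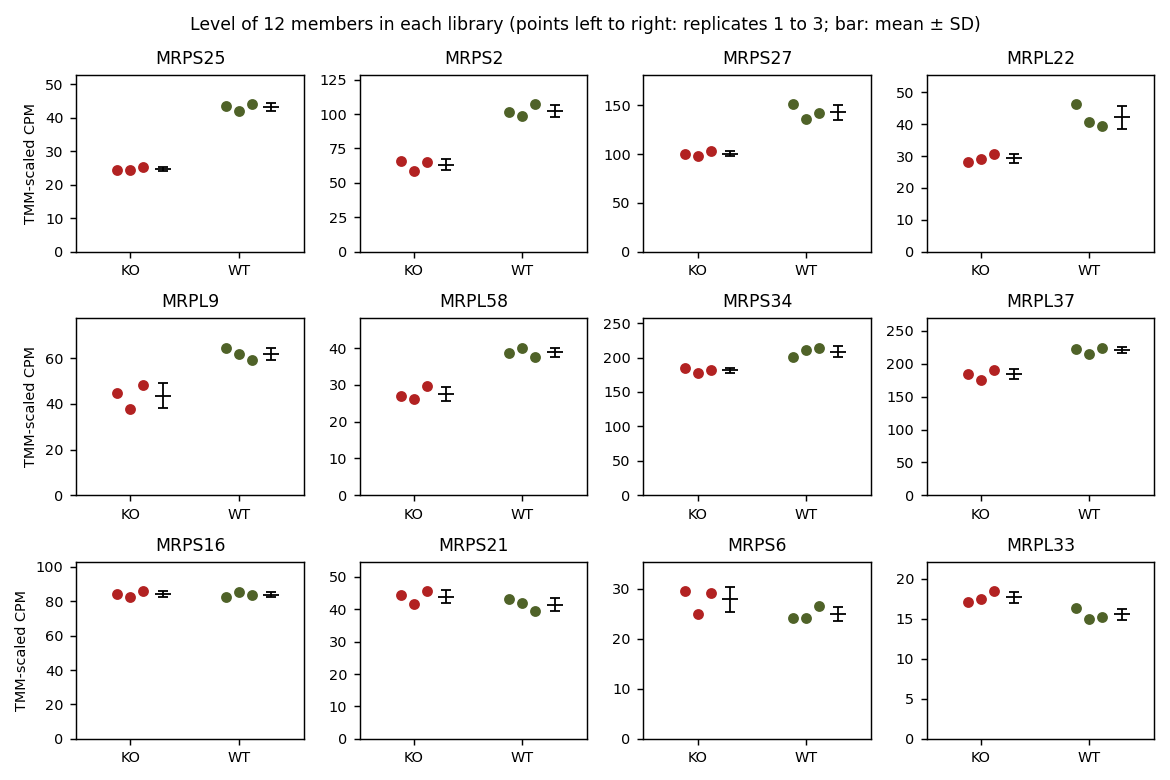
TMM-scaled CPM of 12 members in each library, KO left of WT, with replicates 1 to 3 from left to right and a bar for the mean ± SD of 3 libraries; each axis starts at 0. MRPS25 sits near 25 CPM in KO and above 41.9 CPM in WT, whereas the points of MRPS16 and MRPS21 overlap between the groups.

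In the large subunit MRPL22, MRPL9 and MRPL58 had the lowest fold changes. MRPL22, whose bacterial counterpart lines the exit tunnel of the nascent chain, had 28.0, 29.1 and 30.7 CPM in KO and 46.3, 40.6 and 39.4 CPM in WT (log2 fold change -0.52 ± 0.07, SE, edgeR adjusted p = 1.00e-06). MRPL9, the counterpart of bacterial L9, had 44.8, 37.7 and 48.3 CPM in KO and 64.7, 61.8 and 59.2 CPM in WT (-0.50). MRPL58, also called ICT1, is a peptidyl-tRNA hydrolase built into the subunit, and had 26.9, 26.2 and 29.8 CPM in KO against 38.6, 40.1 and 37.7 CPM in WT (-0.49). In all 3 genes every KO library lay below every WT library. MRPL9 shares 46.8% of its principal transcript with other genes, 20.8% with AL589765.7 on the other strand, and the part of shared reads was not tested.

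Next came MRPL32, MRPL35 and MRPL21, 3 proteins with bacterial counterparts. MRPL32 had 22.2, 22.9 and 24.8 CPM in KO and 31.7, 33.2 and 33.3 CPM in WT (log2 fold change -0.49). MRPL35 had 34.7, 29.99 and 36.6 CPM in KO and 49.7, 43.0 and 47.5 CPM in WT (-0.47). MRPL21 had 53.6, 47.9 and 54.4 CPM in KO and 69.6, 65.3 and 69.7 CPM in WT (-0.39). All 3 were called lower, and none overlapped between the groups. MRPL12, a stalk protein that recruits translation factors and is known to bind the mitochondrial RNA polymerase, had 33.1, 31.7 and 36.0 CPM in KO and 40.5, 41.1 and 44.1 CPM in WT (-0.32 ± 0.06, SE, edgeR adjusted p = 0.000256). Its partner in the stalk did not follow. MRPL10, which anchors MRPL12, had 66.9, 64.3 and 70.4 CPM in KO and 66.4, 66.5 and 64.04 CPM in WT, with overlapping groups and a log2 fold change of 0.03 (edgeR adjusted p = 0.599).

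Of the other large subunit members, 3 were near or above their WT level. MRPL33, with a bacterial counterpart, had 17.1, 17.4 and 18.4 CPM in KO and 16.3, 15.01 and 15.2 CPM in WT. It was the only member with every KO library above every WT library, but its log2 fold change of 0.19 ± 0.08 (SE) missed the threshold (edgeR adjusted p = 0.0604). MRPL33 was called higher in protein-coding genes alone, with a stricter filter on counts and with upper-quartile factors. MRPL43, specific to mitochondria, had 48.0, 43.6 and 49.3 CPM in KO and 45.9, 49.2 and 48.1 CPM in WT (-0.02). MRPL45, which lies near the tunnel exit and helps attach the ribosome to the inner membrane, had 56.9, 48.0 and 52.1 CPM in KO and 55.2, 53.1 and 51.04 CPM in WT (-0.03). Both overlapped between the groups, and the signs of MRPL43 and MRPL45 turned under other settings.

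The other lower members made a narrow band. In the large subunit MRPL1, MRPL2, MRPL4, MRPL11, MRPL14, MRPL15, MRPL18, MRPL19, MRPL24, MRPL27, MRPL30, MRPL40, MRPL41, MRPL42, MRPL46, MRPL47, MRPL49, MRPL50, MRPL51, MRPL52 and MRPL54 were called lower, with log2 fold changes from -0.38 (MRPL47) to -0.13 (MRPL49). The call of MRPL42 (edgeR adjusted p = 0.0473) was lost in most other settings. MRPL41, a mitochondria-specific protein, had 57.6, 55.1 and 59.6 CPM in KO and 68.2, 75.1 and 75.9 CPM in WT (-0.35), and MRPL51, likewise specific to mitochondria, had 108, 105 and 112 CPM in KO and 120, 119 and 122 CPM in WT (-0.15). In both genes every KO library lay below every WT library. MRPL51 shares 19.7% of its principal transcript with NCAPD2 on the other strand, where reads cannot be told apart. NCAPD2 averaged 308 CPM in KO and 422 CPM in WT (-0.45) and was called lower. Its part in the level of MRPL51 was not tested. In the small subunit MRPS7, MRPS10, MRPS11, MRPS23, MRPS26 and MRPS35 were also lower, from -0.25 (MRPS11) to -0.14 (MRPS23).

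Members that were not called included some with falls as large as called ones but wider error. MRPL53, specific to mitochondria, had 3.99, 3.62 and 3.31 CPM in KO and 4.59, 4.01 and 5.15 CPM in WT, with a log2 fold change of -0.34 ± 0.16 (SE, edgeR adjusted p = 0.0784). All its KO libraries lay below its WT libraries. The remaining uncalled large subunit members, MRPL13, MRPL16, MRPL17, MRPL23, MRPL28, MRPL34, MRPL38, MRPL39, MRPL44, MRPL48, MRPL55 and MRPL57, lay between -0.26 (MRPL38) and -0.04 (MRPL44). MRPS17, MRPS22, MRPS28 and MRPS31 of the small subunit lay between -0.17 (MRPS28) and -0.05 (MRPS31).

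The MRPS18 genes are a family of 3 related proteins with different places in the ribosome, and none of them was called. MRPS18A, in the large subunit, had a log2 fold change of -0.08, MRPS18B, in the small subunit, -0.09, and MRPS18C, the small subunit counterpart of bacterial S18, -0.21. MRPS18C was the least abundant of them, with 9.93, 10.9 and 12.7 CPM in KO and 14.0, 12.4 and 12.6 CPM in WT, overlapping between the groups. Of its principal transcript 78.9% is shared with ABRAXAS1 on the other strand, and of that of MRPS18A 56.9% with RSPH9. The libraries carry no strand information, so reads of such pairs cannot be told apart.

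Levels of the members differed far more than the 2 groups did. Per kilobase of principal transcript, MRPS34, a mitochondria-specific small subunit protein, ranked first with 181, 173 and 178 CPM per kilobase in KO and 196, 206 and 209 in WT. MRPL37, specific to mitochondria, had 125, 118 and 129 CPM per kilobase in KO and 150.2, 145 and 151 in WT. MRPL20, MRPS15 and MRPL3, each with a bacterial counterpart, followed. MRPL20 had 112, 111 and 118 CPM per kilobase in KO and 132, 129.6 and 130.3 in WT, MRPS15 had 106, 101 and 110.1 in KO and 130.02, 120.1 and 125 in WT, and MRPL3 had 86.6, 82.7 and 87.1 in KO and 113, 103 and 105 in WT. In all 5 genes the KO libraries lay below the WT libraries, and all were called lower, with log2 fold changes of -0.20 for MRPS34, -0.26 for MRPL37, -0.20 for MRPL20, -0.24 for MRPS15 and -0.33 for MRPL3. MRPS34 stood clear of MRPL37 beyond the spread of the libraries in both groups, whereas MRPL20 and MRPS15 differed by less than the sum of their SDs in both.

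At the low end were MRPS17, MRPL42 and MRPL53. MRPS17, the counterpart of bacterial S17, had 1.78, 2.55 and 2.74 CPM per kilobase in KO and 3.003, 2.36 and 2.23 in WT. MRPL42, specific to mitochondria, had 2.79, 2.74 and 3.18 in KO and 3.50, 3.09 and 3.15 in WT. MRPL53 had 3.44, 3.11 and 2.85 in KO and 3.95, 3.45 and 4.44 in WT. Within KO the values of MRPL42 and MRPL53 overlapped, and those of MRPS17 ended just under the lowest of MRPL42. MRPL42's rank follows from the length of the transcript used, 15582 bases, and MRPL53 shares 52.3% of its transcript with CCDC142. MRPS17 shares 25.5% of its transcript with AC092647.5 on the same strand, which has 0 counts in every library. The part of this overlap in its level was not tested. The 90th percentile of member levels was 9.68 times the 10th in KO and 9.05 times in WT. Members kept their order between the groups (Spearman rho = 0.98 across 78 genes, which share the libraries and transcript lengths).

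MRPS24 is the one member that failed the filter. Its counts were 1, 4 and 8 in KO and 6, 10 and 7 in WT, so no fold change is given. Of its principal transcript 85.7% lies inside the readthrough gene URGCP-MRPS24 on the same strand, which has 0 counts in every library. How reads shared by 2 genes were counted is not stated in the labels, and its part in this low value was not tested.

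How far the genes fell was read against their level, since the median of all genes tested moved with level. Among genes of 16 to 64 CPM, 32.8% of all genes tested were lower with a median log2 fold change of -0.04, against 26 of 44 members with a median of -0.17. Among genes of 64 CPM or more, 49.9% of all were lower with a median of -0.11, against 20 of 25 members with a median of -0.23. In the range of 4 to 16 CPM 17.7% of all were lower with a median of 0.09, against 2 of 8 members with a median of -0.22. No tested member lay under 4 CPM. In each range the members' median was below that of all genes. Among the members themselves the fold change showed little relation to level (Spearman rho = -0.07 across 77 genes in the same libraries).

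**Figure D3:**
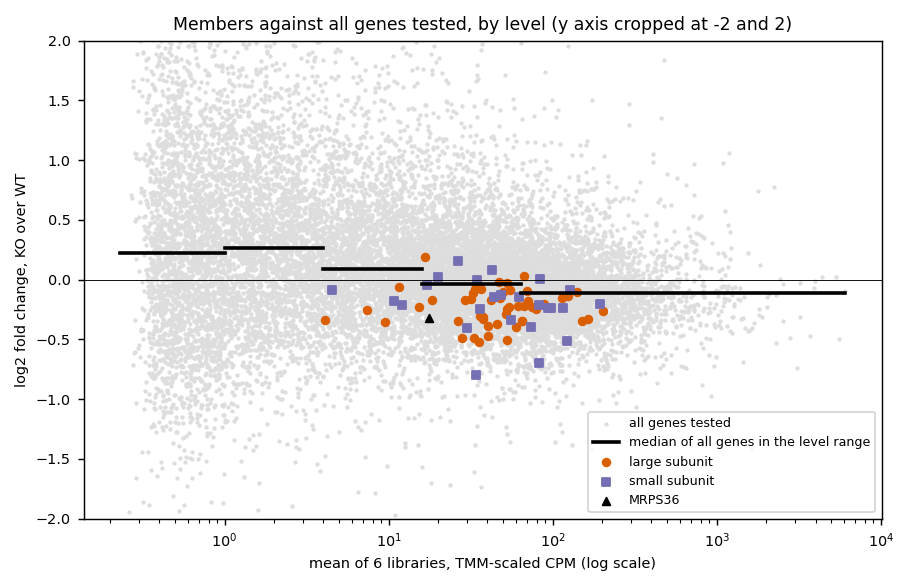
Log2 fold change, KO over WT, against the mean CPM of 6 libraries on a log scale, for all genes tested (grey), large subunit members (circles), small subunit members (squares) and MRPS36 (triangle). Black bars are the medians of all genes in a range of level, which run from 0.26 at 1 to 4 CPM down to -0.11 at 64 CPM or more; most members lie below the bar of their range.

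Members are spread over 21 chromosomes, and chromosome 5 stood apart as a whole. All 5 members there, MRPL22, MRPL36, MRPS27, MRPS30 and MRPS36, were called lower, with a median log2 fold change of -0.37. Of all 781 genes tested on chromosome 5, 46.9% were lower with a median of -0.20. MRPL36, with a bacterial counterpart, had 39.8, 36.1 and 43.0 CPM in KO and 48.5, 53.5 and 52.2 CPM in WT (-0.37). MRPS30, a mitochondria-specific protein of the large subunit, had 126, 130 and 143 CPM in KO and 171, 166 and 169 CPM in WT (-0.34). MRPS36 had 15.7, 14.4 and 16.9 CPM in KO and 19.8, 19.3 and 19.7 CPM in WT (-0.32). Each of these genes had all its KO libraries below all its WT libraries. Away from chromosome 5, 43 of 72 tested members were lower with a median of -0.21, against 24.9% of all genes with a median of 0.01. What lowers chromosome 5 and what lowers these 5 genes cannot be told apart.

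**Figure D4:**
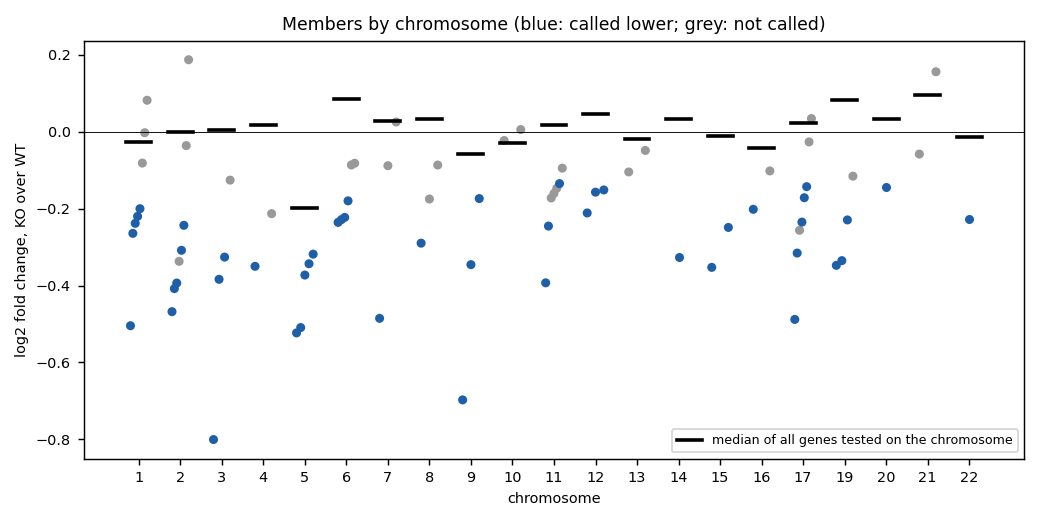
Log2 fold change of each tested member, KO over WT, by chromosome, blue where called lower and grey where not called, with a black bar for the median of all genes tested on that chromosome. The bar of chromosome 5 is at -0.20 and its 5 members lie between -0.52 and -0.32, and members of most other chromosomes also lie below their bar.

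Promoter sequence was set beside the fold changes, since factors known to drive nuclear genes of mitochondrial proteins have short recognition sequences. RefSeq promoters of build GRCh38.p14, 250 bases before to 50 after the start, matched 69 of the 78 members. MRPL2, MRPL10, MRPL13, MRPL15, MRPL21, MRPL23, MRPL35, MRPS28 and MRPS36 had none. The letters searched on both strands were GCGCATGC for nuclear respiratory factor 1 (NRF1), CCGGAAGT for ETS factors such as GABPA, AAGATGGCG for YY1 and CACGTG for the E-box of MYC and related factors. None of the 4 strings contains another. The promoters shown are those of the 2 largest falls and of 3 lower members that hold several of these strings or share a start region, 5′ to 3′ on the gene's strand, with matches in capitals.
MRPS25: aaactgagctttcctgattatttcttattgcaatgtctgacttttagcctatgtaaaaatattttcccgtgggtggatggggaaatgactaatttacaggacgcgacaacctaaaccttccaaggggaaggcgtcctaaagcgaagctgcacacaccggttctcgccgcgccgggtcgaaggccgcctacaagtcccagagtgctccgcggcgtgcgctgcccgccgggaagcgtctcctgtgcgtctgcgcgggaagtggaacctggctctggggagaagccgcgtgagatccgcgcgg
MRPS2: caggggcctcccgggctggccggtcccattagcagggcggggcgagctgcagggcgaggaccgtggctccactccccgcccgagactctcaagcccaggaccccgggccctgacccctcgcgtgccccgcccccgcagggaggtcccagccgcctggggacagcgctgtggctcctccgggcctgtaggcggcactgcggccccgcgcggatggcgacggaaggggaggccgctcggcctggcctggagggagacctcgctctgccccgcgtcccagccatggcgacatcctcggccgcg
MRPL22: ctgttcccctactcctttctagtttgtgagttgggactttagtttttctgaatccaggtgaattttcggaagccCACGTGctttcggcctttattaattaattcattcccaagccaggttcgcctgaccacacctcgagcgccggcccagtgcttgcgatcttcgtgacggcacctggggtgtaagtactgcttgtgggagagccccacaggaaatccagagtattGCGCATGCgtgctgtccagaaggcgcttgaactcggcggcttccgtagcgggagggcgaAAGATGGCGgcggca
MRPL52: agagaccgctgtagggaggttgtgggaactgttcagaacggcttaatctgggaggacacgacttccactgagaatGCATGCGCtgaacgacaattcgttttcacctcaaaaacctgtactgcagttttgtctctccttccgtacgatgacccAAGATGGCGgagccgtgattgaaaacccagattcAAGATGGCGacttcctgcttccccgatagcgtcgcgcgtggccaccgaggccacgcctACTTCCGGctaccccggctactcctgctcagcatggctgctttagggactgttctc
MRPL46: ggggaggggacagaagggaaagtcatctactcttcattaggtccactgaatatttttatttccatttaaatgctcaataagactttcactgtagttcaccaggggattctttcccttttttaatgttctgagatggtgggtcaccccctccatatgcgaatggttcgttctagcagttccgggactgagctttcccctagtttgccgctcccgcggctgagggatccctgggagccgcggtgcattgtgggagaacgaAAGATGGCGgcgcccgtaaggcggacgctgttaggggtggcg
They lie at chr3:15065266-15065565 (MRPS25, minus strand), chr9:135500432-135500731 (MRPS2, plus), chr5:154940823-154941122 (MRPL22, plus), chr14:22829637-22829936 (MRPL52, plus) and chr15:88467339-88467638 (MRPL46, minus).

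MRPS25 and MRPS2, with the largest falls, hold none of the 4 strings in this window. The MRPS2 window begins at 135500432, inside the gene span that starts at 135499984, so sequence around that first base was not searched. MRPL22 holds the E-box, the NRF1 string and, after the start, the YY1 string. MRPL52, a mitochondria-specific large subunit protein with a log2 fold change of -0.33, holds the NRF1 and ETS strings in reverse and the YY1 string at 2 places. The YY1 string was in 13 of 69 member promoters, 18.8%, against 3.77% of the promoters of all genes tested and 2.74% of all promoters in the table. The ETS string was in 11, or 15.9%, against 8.50% of the tested and 6.19% of all, and the NRF1 string in 6, or 8.70%, against 5.34% and 4.26%. The E-box was in 6, or 8.70%, against 9.94% and 8.88%.

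Each string was found both in lower members and in members not called. YY1 letters were in 9 of 43 lower members and in 3 of 25 not called, ETS letters in 7 and 4, NRF1 letters in 3 and 3 and the E-box in 4 and 2. A match is a description of letters and not of binding.

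Many members start close to another gene on the opposite strand. By the starts of principal transcripts, 25 pairs with another protein-coding gene within 1000 bases were found, holding 26 members, and in 19 pairs the member was lower. The neighbour was also lower in 7 of these, was not called in 11 and was higher in 1. Of all genes tested 25.9% were lower, and of protein-coding genes tested 29.6%. Whether neighbours of lower members differ from this background was not tested. MRPL46 and MRPS11, a large and a small subunit gene on chromosome 15, start 34 bases apart, and the MRPL46 promoter above lies across their shared region. MRPL46 had 8.49, 8.36 and 8.06 CPM in KO and 9.98, 10.6 and 11.2 CPM in WT (log2 fold change -0.35), and MRPS11 had 35.3, 31.5 and 32.0 CPM in KO and 40.1, 38.9 and 38.1 CPM in WT (-0.25). Both were called lower, with no overlap between groups.

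Other pairs split. MRPL2, with a bacterial counterpart, was lower (-0.18) beside KLC4, a kinesin light chain gene, which was higher (0.47). MRPL47 was lower (-0.38) beside NDUFB5, a respiratory complex I gene, at -0.01 (edgeR adjusted p = 0.884). MRPL43 at -0.02 stood beside TWNK, the mitochondrial DNA helicase, which was lower (-0.38), and MRPL57 at -0.10 beside SKA3, a kinetochore gene, which was lower (-0.67). Member and neighbour shared a call in some pairs and not in others, and whether a shared start region has a part was not tested. MRPS2, with the second largest fall, was beside C9orf116 (0.18, edgeR adjusted p = 0.634). MRPL2 shares 17.7% of its principal transcript with KLC4, whose reads cannot be told apart there.

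Genes outside the symbol rule that belong to the same machine were counted from lists. Beside the counts of these and the later lists, 25.9% of all genes tested were lower. That share was 32.8% at 16 to 64 CPM and 49.9% at 64 CPM or more. Differences between a list and these shares were not tested. Among 5 mitoribosomal proteins with other names, 2 were lower: DAP3, a GTP-binding small subunit protein, with 112, 109 and 117 CPM in KO and 144, 139 and 137 CPM in WT (-0.31), and AURKAIP1, another small subunit protein, with 161, 151 and 169 CPM in KO and 183, 194 and 200 CPM in WT (-0.26). No library of either gene crossed into the other group. Of 30 genes for ribosome assembly and rRNA modification 19 were lower and 0 higher, with a median log2 fold change of -0.20. The assembly protein MPV17L2 (-0.52), the GTPase GTPBP6 (-0.50), the pseudouridine synthase RPUSD4 (-0.49) and the GTPase MTG1 (-0.46) fell most.

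Translation factors moved likewise. Of 16 such genes 10 were lower and 0 higher, with a median of -0.22. They include MRRF, the ribosome recycling factor (-0.44), GFM1, the elongation factor that moves the ribosome along (-0.35), GFM2, which acts in recycling (-0.35), and LRPPRC, which stabilises mitochondrial mRNAs (-0.28). Of 11 genes for mitochondrial DNA transcription and replication 7 were lower and 0 higher, among them the polymerase POLG (-0.41), TWNK (-0.38), and the transcription factors TFAM (-0.29) and TFB2M (-0.27). Import and processing genes had the lowest median, -0.33, with 14 of 21 lower and 0 higher. The chaperone HSPA9 of the import motor averaged 454 ± 19.3 CPM in KO and 750 ± 32.2 CPM in WT (-0.72), the import channel TOMM40 163 ± 3.59 CPM in KO and 264 ± 3.11 CPM in WT (-0.69), and PAM16 (-0.74) and HSPD1 (-0.59) were also lower. GFM2 and HSPA9 lie on chromosome 5, where 46.9% of all genes tested were lower. What lowers chromosome 5 and what lowers GFM2 and HSPA9 cannot be told apart.

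The 2 RNAs of the mitochondrial ribosome went opposite ways. MT-RNR1, the small subunit RNA, had 123, 184 and 204 CPM in KO and 364, 280 and 344 CPM in WT, a log2 fold change of -0.94 ± 0.11 (SE, edgeR adjusted p = 1.14e-07). MT-RNR2, the large subunit RNA, had 1318, 1376 and 1422 CPM in KO and 1097, 1025 and 994 CPM in WT, a log2 fold change of 0.40 ± 0.04 (SE, edgeR adjusted p = 3.07e-08). The SD of MT-RNR1 was 42.2 CPM around a mean of 171 CPM in KO and 43.9 CPM around a mean of 329 CPM in WT. Neither rRNA gene overlapped between the groups. Both are copied from the same strand of mitochondrial DNA, and how ribosomal RNA was removed from these libraries is not stated in the labels. Of the 13 mitochondrial mRNAs 6 were lower and 0 higher, with a median of -0.19, beside 49.9% of all genes at 64 CPM or more, the range in which all but MT-ATP8 lie. The lower ones were led by MT-ND2 (-0.40), MT-ATP6 (-0.36) and MT-ND1 (-0.34).

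Known regulators of nuclear genes for mitochondria were also measured. Of 10 such genes 5 were lower and 0 higher, beside 32.8% of all genes tested lower at 16 to 64 CPM and 49.9% at 64 CPM or more. The coactivator PPARGC1B had 11.6, 12.5 and 9.56 CPM in KO and 25.8, 25.2 and 24.7 CPM in WT (-1.17 ± 0.09, SE, edgeR adjusted p = 2.05e-10), and the related PPRC1 had 82.7, 87.4 and 80.5 CPM in KO and 142, 137 and 134 CPM in WT (-0.72). Both were separated between the groups. PPARGC1B lies on chromosome 5, where 46.9% of all genes tested were lower. What lowers chromosome 5 and what lowers PPARGC1B cannot be told apart. GABPB1, a subunit of an ETS-type factor, had a log2 fold change of -0.44, NRF1 of -0.36 and MYC of -0.19, all called lower. YY1 had 207, 211 and 205 CPM in KO and 211, 217 and 219 CPM in WT (-0.06, edgeR adjusted p = 0.252), and GABPA, the DNA-binding partner of GABPB1, was at -0.05 (edgeR adjusted p = 0.666). Neither was called, nor were ESRRA (-0.01), MAX (0.00) and PPARGC1A, which stood near 1 CPM (0.50, edgeR adjusted p = 0.186).

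**Figure D5:**
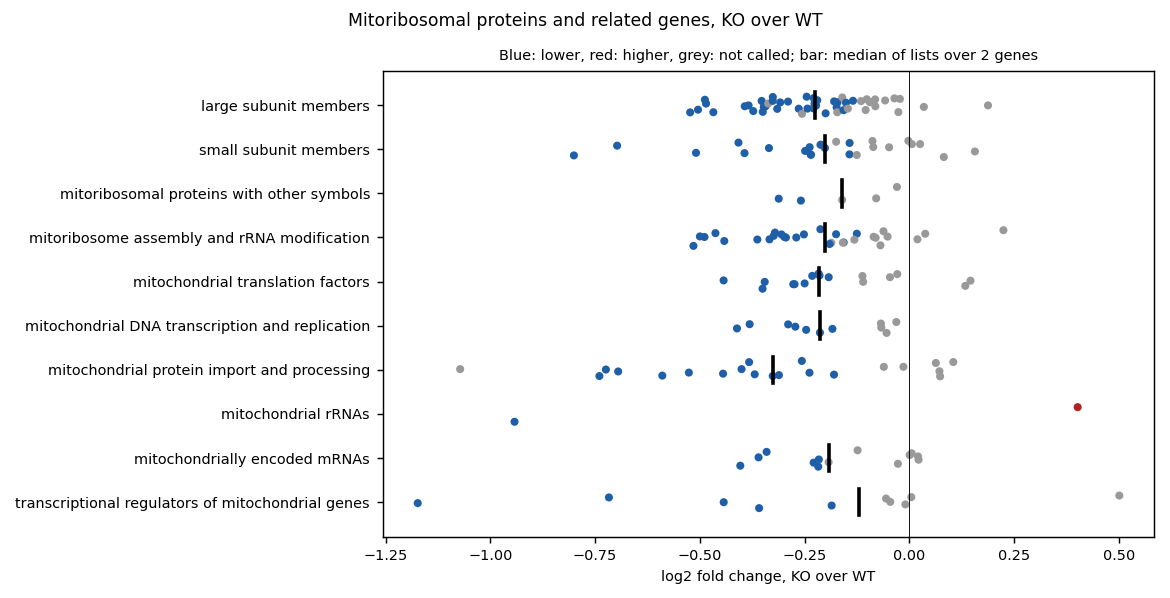
Log2 fold change, KO over WT, of each tested gene in the 2 subunits and in 8 lists of related genes; blue was called lower, red higher and grey not called, and bars are medians of lists with more than 2 genes. Medians run from -0.33 for import to -0.12 for the regulators, and MT-RNR2 at 0.40 is the only gene called higher.

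Cytosolic ribosomal protein genes gave a comparison with the cell's main ribosome. Of 83 tested, 56 were lower and 2 higher, with a median log2 fold change of -0.16. Nuclear genes for subunits of the respiratory chain and ATP synthase gave a comparison with the products that the mitochondrial ribosome serves. Of 83 tested, 35 were lower and 6 higher, with a median of -0.14. The share lower was 67.5% in the cytosolic family, whose median level was 389 CPM. It was 42.2% in the respiratory chain family, whose median level was 70.5 CPM. Of all genes tested at 64 CPM or more, 49.9% were lower with a median of -0.11, and at 16 to 64 CPM 32.8% with a median of -0.04. The respiratory chain share lay between these 2 shares, and its median level lies near the border of the 2 ranges. Values of the 3 families are descriptions side by side from the same libraries, and differences between them were not tested.

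Reads of some members may be shared with other genes. The span of 49 members holds at least 1 other gene, and 41 share exon bases with one, whereas how many reads were shared is not known. Among the 29 with no gene over the span, 20 were lower, and among the 52 with under 10% of the principal transcript shared, 35 were lower. Of 8 members with 50% or more shared, 2 of the 7 tested were lower, MRPL46 and MRPL12, each beside a gene of the same strand with 0 counts in every library. These 7 had a median level of only 10.8 CPM and a median log2 fold change of -0.26. Of all genes tested 25.9% were lower, with 17.7% at 4 to 16 CPM, 32.8% at 16 to 64 CPM and 49.9% at 64 CPM or more. Pseudogenes of the family, 75 by symbol, drew few reads, 0.0838% to 0.111% as many counts as the members, and of the 4 tested none was called.

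In the authors' deposited table, 43 of the 78 members have an adjusted p under 0.05 and a negative log2 fold change, and 0 a positive one. All 43 were also lower in the edgeR fit here. The log2 fold changes of the authors' deposited table had the same sign for 76 of 77 tested members and differed from those here by at most 0.0187.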

How the data were processed

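Counts of reads per gene were deposited by the authors for 58735 genes in 3 libraries labelled MUC16 knockout and 3 labelled WT, grouped by titles and genotype labels. RNA was isolated with a column kit and libraries were built with the NEBNext Ultra kit, which marks no strand, per the labels' protocols. The submitters' processing notes name GRCh38 with fastp, STAR, HISAT2 and DESeq. Their versions, and how reads were counted and by which strand, were not given in the sources used here. A second table from the authors holds, per the file headers, normalised signal and FPKM values, which are not printed here, and the authors' log2 fold changes and p-values, which were compared.

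The two-sided quasi-likelihood test of edgeR 4.0.16 (R 4.3.3), with the group as its single term, was run on the counts after filterByExpr (minimum count 10, minimum total count 15) and TMM scaling, which left 16655 genes. Benjamini-Hochberg adjustment was over all of these, with a threshold of 0.05. Levels are TMM-scaled CPM. Library totals of 19088927 to 28612621 counts set the precision, and the common coefficient of biological variation was 0.0498. The fit was tested on simulated data. Alternatives used DESeq2 1.42.0, limma 3.58.1 and the settings named below. Exon overlaps and principal transcripts came from GENCODE, whose gene positions match the count table's for all 78 members, so coordinates are on GRCh38. The members and gene lists were chosen with earlier results of these data known. Genes were named as the 6 lowest and 4 highest fold changes in each subunit, the 5 highest and 3 lowest levels per kilobase, members on chromosome 5, members failing the filter and a few fixed by name, and up to 4 genes of each related list. Others, among them MRPL46, MRPS11, MRPS14, MRPL41, MRPL51, the genes in pairs and the uncalled regulators, were chosen after their values were seen. Same-numbered libraries showed little shared deviation over all genes tested (r of 0.0116, 0.0205 and -0.0240). With 3 libraries in each group and counting noise included, this cannot exclude pairing. The labels state no pairs, so the numbers were not treated as pairs in the fit reported.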

Additional observations from a re-analysis of the deposited data

How the results depend on the processing

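The count of lower members stayed between 40 and 50 with DESeq2 or its size factors, limma-voom, cyclic loess, upper-quartile factors, a stricter filter or none, protein-coding genes alone, a threshold of 0.01 and a fit without chromosome 5. Counting only members off chromosome 5, chosen after seeing the data, gave 43. With 1 library left out it ran from 43 to 56, the highest without KO replicate 3. With the replicate block 45 were lower, 44 of them also lower without it. In all, 38 members were lower in the fit reported and in 15 refits, the one without chromosome 5 apart. Members called higher numbered 1 with protein-coding genes alone (MRPL33) and 2 with the stricter filter and with upper-quartile factors (MRPL33 and MRPS6, so 1 large and 1 small subunit member), and 0 to 1 with 1 library left out (MRPS6 without KO replicate 2, so also 0 to 1 in the small subunit). Keeping only members whose span no gene overlaps left 20 lower, 14 large and 5 small; keeping those with under 10% shared, chosen after seeing the data, left 9 small. The call of MRPL42 was lost in 10 alternatives besides the threshold of 0.01 and that of MRPS34 under cyclic loess. Log2 fold changes that turned in sign were all uncalled. Under cyclic loess they were 0.0281 for MRPL43, 0.0338 for MRPL45, 0.0085 for MRPS18B and -0.0129 for MRPS33. The stricter filter gave 0.0041 for MRPL43 and 0.00061 for MRPL45, and upper-quartile factors gave 0.0326 and 0.0291. MRPS16 was at -0.0082 with no filter and -0.0033 without chromosome 5. With 1 library left out, MRPL10 ran from -0.0016 to 0.0693, MRPL43 from -0.0614 to 0.0321, MRPL45 from -0.0893 to 0.0346, MRPS16 from -0.0098 to 0.0246, MRPS17 from -0.211 to 0.0581 and MRPS33 from -0.116 to 0.103. The cause was not tested. Depth limits MRPS24, MRPS17 and MRPL53 most, with under 10 CPM. MRPL38 (mean of 7.40 CPM) and MRPL46 (mean of 9.45 CPM) also lie under 10 CPM.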
